A study of Mus musculus with 38 samples.

Results

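The matrix metalloproteinases (Mmp genes), their tissue inhibitors (Timp genes) and the ADAMTS and ADAMTS-like genes were followed in omental tumors of 2 mouse models of high-grade serous ovarian cancer after chemotherapy, and in the cell lines that seed the tumors. Of 55487 genes in the count tables, 51 carry a symbol of these families. The 45 members described here reached at least 1 CPM, a gene's count scaled to the library's total, in at least 25% of the 34 tumors or of the 4 cell line libraries, and comprise 18 of 23 Mmp genes, 4 of 4 Timp genes, 18 of 19 ADAMTS genes and 5 of 5 ADAMTS-like genes. Both tables were passed by 34 members, 9 passed in tumors alone and 2, Mmp24 and Timp4, in the cell lines alone. Just inside the limit, Adamts13 reached 1 CPM in 9 tumors and Mmp27 in 10. Just outside it, Adamts18 did so in 3 tumors, Mmp7 in 2, and Mmp1a, Mmp1b, Mmp20 and Mmp21 in 0 libraries.

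Tumors of the 60577 model grew in FVB mice and those of the HGS2 model in C57BL/6J mice, aged 8 to 9 weeks when the cells were injected into the peritoneal cavity. Treated mice received carboplatin at 20 mg/kg with paclitaxel at 10 mg/kg for 3 weekly doses, beginning 21 days after injection for 60577 and 49 days for HGS2, and control mice received the vehicle. The collection times are named TP1, TP2 and TP3, which followed the final injection by 1, 7 and 21 days, and each tumor came from its own mouse. For 60577 there were 3 control and 3 treated tumors at TP1, 3 control and 4 treated at TP2, and 4 treated at TP3. For HGS2 there were 3 and 3 at TP1, 4 and 3 at TP2, and 4 treated at TP3. Each cell line was sequenced as 2 monoculture libraries. No TP3 control was sequenced, so treated TP3 tumors were set against TP2 controls and treatment and time cannot be told apart there; each model is 1 cell line in 1 mouse strain, so model and strain cannot be told apart either. The genotypes of the lines are not given in the sources used here.

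Metalloproteinases are zinc enzymes that are made as inactive precursors and cut collagens, proteoglycans, elastin and other matrix and cell surface proteins. The gelatinases, collagenases and stromelysins are secreted, the membrane-type enzymes are anchored to the cell surface, and the TIMPs bind and block the active enzymes. ADAMTS enzymes carry thrombospondin repeats and include the aggrecanases, which cut aggrecan and versican, and the procollagen N-proteinases, which trim procollagen before fibrils form, while ADAMTS-like proteins lack the protease domain and bind the microfibrils of the matrix.

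A run of 10 Mmp genes lies together on mouse chromosome 9, between bases 7272514 and 7699585 of GRCm38, and 6 of them are members: Mmp13, Mmp12, Mmp3, Mmp10, Mmp8 and Mmp27. The 100 bases before the RefSeq start of each of the 6 are shown, with those of Timp1 for contrast, as plus strand sequence 5′ to 3′. Capitals mark TGAGTCA or its complement TGACTCA, the classical binding site of the AP-1 transcription factors. Mmp12 has 2 RefSeq starts and the second, which lies inside the gene, is shown.
Mmp13 (chr9:7272414-7272513): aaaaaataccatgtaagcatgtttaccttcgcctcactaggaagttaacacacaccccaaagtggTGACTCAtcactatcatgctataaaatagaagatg
Mmp12 (chr9:7347274-7347373): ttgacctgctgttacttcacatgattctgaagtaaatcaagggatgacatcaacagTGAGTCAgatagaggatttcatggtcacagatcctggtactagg
Mmp3 (chr9:7445722-7445821): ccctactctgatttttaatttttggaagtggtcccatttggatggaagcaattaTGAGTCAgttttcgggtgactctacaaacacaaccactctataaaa
Mmp10 (chr9:7502242-7502341): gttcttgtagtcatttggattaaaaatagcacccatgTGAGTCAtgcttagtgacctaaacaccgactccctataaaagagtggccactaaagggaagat
Mmp8 (chr9:7558329-7558428): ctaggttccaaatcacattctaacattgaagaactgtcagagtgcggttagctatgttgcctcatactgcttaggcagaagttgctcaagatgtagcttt
Mmp27 (chr9:7571296-7571395): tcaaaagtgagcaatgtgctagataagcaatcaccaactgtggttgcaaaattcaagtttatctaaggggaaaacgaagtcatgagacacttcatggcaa
Timp1 (chrX:20870066-20870165): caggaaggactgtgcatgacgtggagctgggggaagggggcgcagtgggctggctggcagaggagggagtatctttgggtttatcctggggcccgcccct

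RefSeq promoters (GRCm38.p6) were matched for 30 of the 45 members by symbol. In the 250 bases before the start, 4 of these 30 members held the 7 letters on either strand, Mmp13, Mmp12, Mmp3 and Mmp10, against 4.46% of all 32851 promoters. The units differ: a member was counted if any of its starts held the letters, and the 30 members have 32 promoters. The motif began 35 bases before the start of Mmp13, 44 before the second start of Mmp12, 46 before Mmp3 and 63 before Mmp10. Within the cluster, 7 of the 10 genes held it, and 0 of the matched members outside it did. The 15 members without a matched promoter all lie outside the cluster and were not searched, among them Mmp9, Mmp2, Mmp19, Adamts4 and Adamts5. These are matches of letters, and binding was not measured.

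Total expected counts ran from 17839635 to 49299442 per tumor (median 27358649) and from 31633121 to 42461995 per cell line library. Levels are given as CPM after TMM scaling; tumors and cell lines were scaled separately. HGS2 TP3 treated replicate 1, which the study's own tables do not show, was left out of the fits (16 HGS2 tumors, 33 in all) but stays in the values listed. Adamtsl1 and Timp2 overlap Sh3gl2 and Cep295nl on the same strand, and their counts are uncertain to that extent. Mmp12 with Mmp1b, Mmp19 with Tmem198b, and the Timp genes 1, 3 and 4 with genes of the synapsin family overlap on opposite strands. Several libraries stood apart. Marker transcripts of pancreatic acinar cells, 7 genes, summed to 66362 CPM in HGS2 TP1 control replicate 3, 125690 in TP2 control replicate 2 and 67094 in TP3 treated replicate 2, against at most 1711 CPM in every other tumor. In 60577, TP1 treated replicate 2 was low for Mmp9, Mmp12, Mmp3 and Timp1 within its group, with adipocyte markers at 477 CPM against 28.0 and 44.4 in its group mates, and TP2 control replicate 2 was high for Timp1 and Adamts4, with endothelial markers at 39.1 CPM against 259 and 301. Bulk RNA cannot tell fewer cells of a type from less RNA per cell, and each p-value sets a difference against the spread between these samples.

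Per kilobase of exon, Timp2 was the most abundant member in all 4 settings, with medians of 309 CPM per kilobase in 60577 tumors, 294 in HGS2 tumors, 490 in the 60577 line and 268 in the HGS2 line. Mmp2, Timp3, Timp1 and Mmp14 followed in 60577 tumors at 98.2, 56.2, 44.8 and 41.9 CPM per kilobase, and the ranges of all 5 over the 17 tumors overlapped with that of the next in order. In HGS2 tumors the next were Timp3 at 202, Timp1 at 171, Mmp2 at 161, Mmp14 at 148 and Mmp9 at 67.7 CPM per kilobase, again with overlapping ranges. Mmp9 ran from 2.38 to 695 CPM per kilobase over the 17 HGS2 tumors, the widest span of these.

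Several members of the tumors were low in the cell lines. Mmp9, a gelatinase made by many myeloid cells, had a median of 3.73 CPM per kilobase in 60577 control tumors and 30.3 in HGS2 control tumors but 0.0817 and 0.0143 in the respective lines. Mmp12, the macrophage metalloelastase, stood at 2.27 and 0.306 CPM per kilobase in control tumors and at 0.00689 and 0.00465 in the lines, and Mmp25 and Adamts8 were below 0.1 in both lines. Mmp2 was at 71.3 and 105 CPM per kilobase in control tumors and at 4.39 and 7.84 in the lines. The other way round, Mmp13, a collagenase, was at 7.26 and 11.6 in the lines and 3.20 and 2.29 in the tumors, and Mmp17, a membrane-anchored enzyme, at 14.0 in the HGS2 line and 1.18 in its control tumors. Macrophage markers (8 genes) summed to at most 4.69 CPM and neutrophil markers (10 genes) to at most 0.301 CPM in any line library, against at least 789 and 9.35 CPM in any tumor. Tumor and line values were scaled apart, so they are set side by side without a test.

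**Figure D1:**
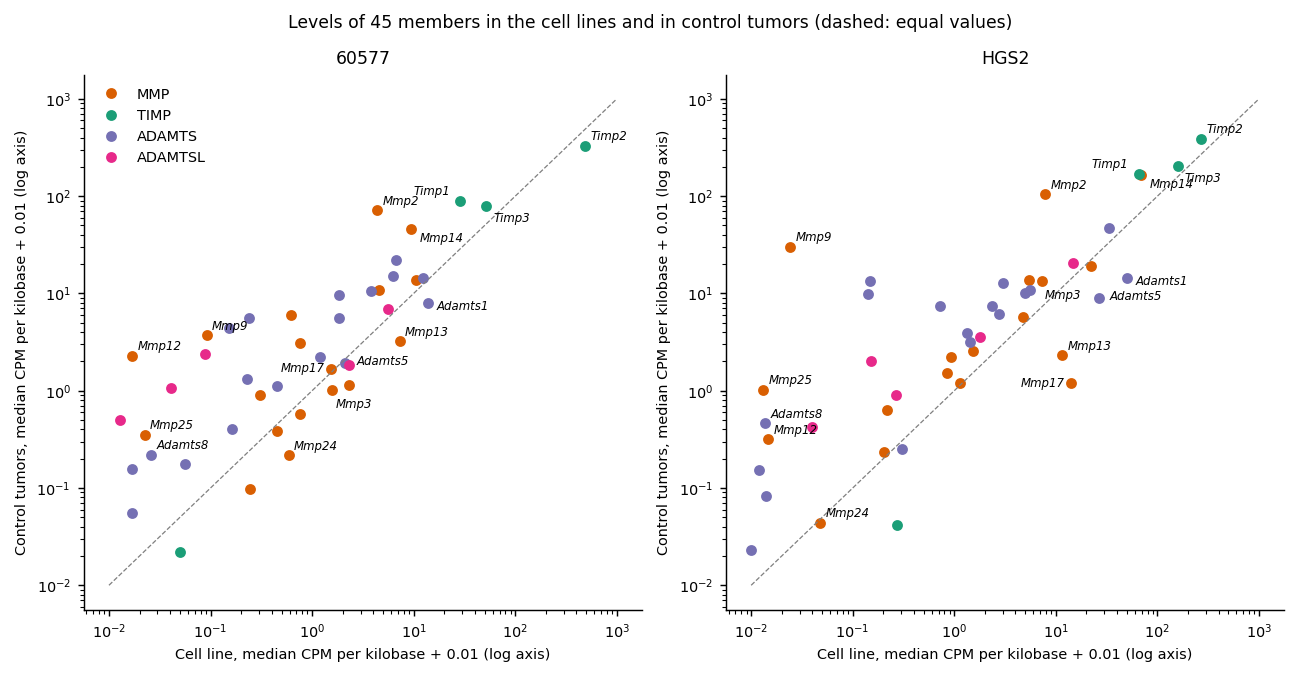
Median level of each of the 45 members in the cell line (horizontal, CPM per kilobase of exon plus 0.01, log axis) and in the control tumors of the same model (vertical, same unit, log axis), colored by family. Mmp9, Mmp12 and Mmp25 lie far above the dashed line of equal values in both models, and Mmp13 lies below it.

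The first question was how the families changed with chemotherapy in 60577 tumors. Shortly after the last dose, at TP1, both gelatinases were higher in treated tumors, as were Mmp12, Mmp3 and Mmp8 of the chromosome 9 cluster. Mmp12 read 66.3 to 735 CPM against 3.74 to 14.98 in controls, and Mmp9 read 40.6 to 534 against 5.12 to 15.9. At TP2, 12 of the 13 genes called higher were ADAMTS and ADAMTS-like genes, and at both TP2 and TP3 Timp1, Mmp13, Mmp10, Adamts4 and Adamts9 were lower than in controls. Members were tested with edgeR's quasi-likelihood test over all genes, and called at a Benjamini-Hochberg adjusted p below 0.05 with an absolute log2 fold change above 1. Of 42 members tested, 15 were called higher and 1 lower at TP1, where 9.66% and 5.97% of all 16232 genes were. The 15 include Mmp27, which passed the level rule only with these treated tumors included, so its value is a description. At TP2, 13 were called higher and 5 lower, against 14.8% and 9.62% of all genes. At TP3, 13 were higher and 7 lower, against 14.2% and 10.2%, and 8 were higher and 8 lower with an offset for gene length and GC content. The shares higher of the members at TP2 and TP3 stood nearer to those of all genes than at TP1.

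The median log2 fold change of the 42 members was 0.80 at TP1, 0.42 at TP2 and 0.45 at TP3, beside -0.00, 0.03 and -0.00 over all genes tested. At TP1 the calls higher were 9 of 17 Mmp genes, 1 of 3 Timp genes, 3 of 17 ADAMTS genes and 2 of 5 ADAMTS-like genes. At TP2 they were 1 Mmp gene, 0 Timp genes, 8 ADAMTS genes and 4 ADAMTS-like genes. The TP2 and TP3 comparisons share their control tumors. Higher in all 3 were Mmp25, Adamts5, Adamts8, Adamts15, Adamtsl1 and Adamtsl5, and Timp1 was called in all 3 but in opposite directions.

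**Figure D2:**
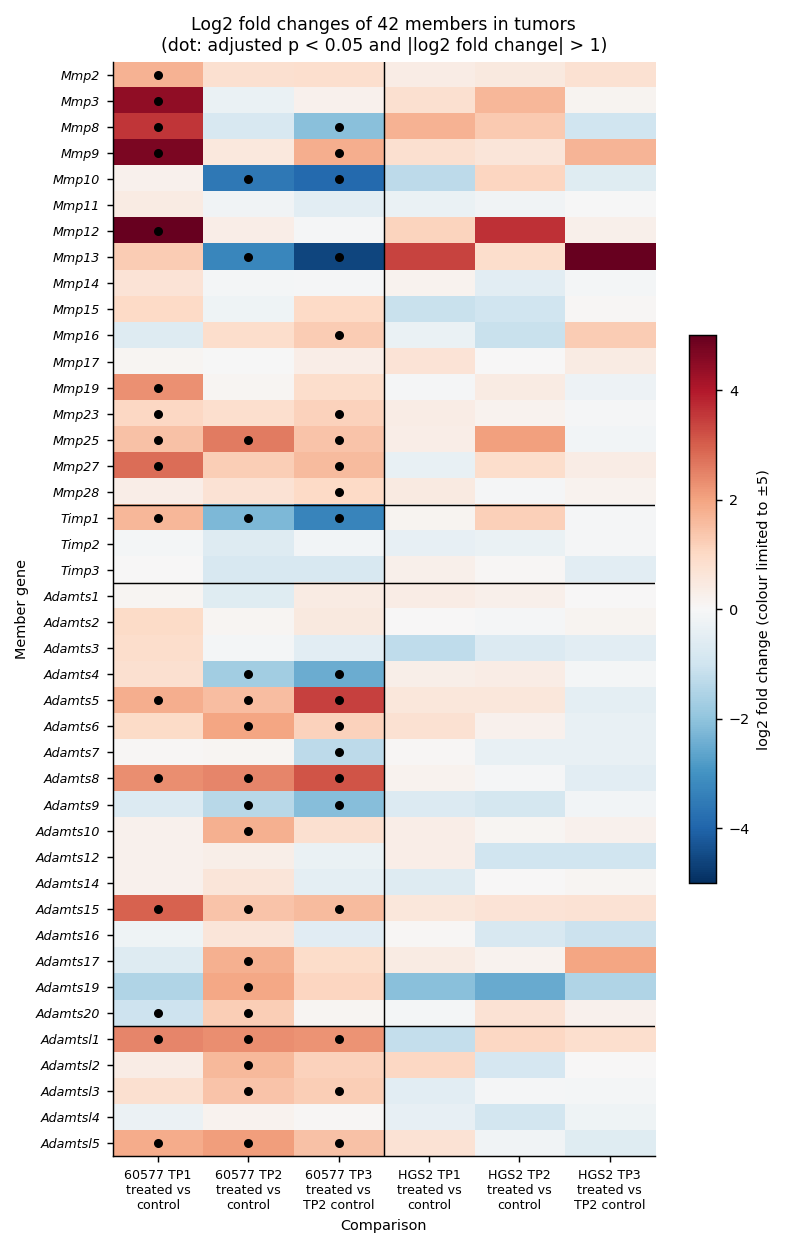
Log2 fold change (color, limited to 5 in either direction) of each of the 42 members tested in tumors, one row each, in the 3 comparisons of treated with control tumors of 60577 (left) and of HGS2 (right); a dot marks a call. Dots appear in the 60577 columns, 16, 18 and 20 of them, and 0 stand in the HGS2 columns.

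Among the gelatinases, which cut denatured collagen and basement membrane collagen, Mmp9 read 5.12, 13.5 and 15.9 CPM in TP1 controls and 314, 40.6 and 534 CPM in TP1 treated tumors. It read 12.9, 43.4 and 9.74 CPM in TP2 controls, 46.1, 38.2, 14.6 and 29.4 at TP2 after treatment and 87.0, 81.5, 85.5 and 59.9 at TP3. All treated tumors at TP1 and TP3 lay above all of their controls, while the TP2 groups overlapped. The log2 fold change of Mmp9 was 4.70 at TP1 (SE 0.83, edgeR adjusted p = 0.000621), 0.53 at TP2 (SE 0.68, adjusted p = 0.516) and 1.83 at TP3 (SE 0.70, adjusted p = 0.0399), and the TP3 call was kept in 2 of 7 fits that left out 1 tumor. Mmp2 read 166, 231 and 264 CPM in TP1 controls and 774, 651 and 789 CPM in treated tumors. Its groups did not overlap, and it was higher by 1.75 (SE 0.32, edgeR adjusted p = 0.000739); at TP2 and TP3 its differences of 0.81 and 0.82 stayed under the fold limit.

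Mmp12, the metalloelastase, had the largest log2 fold change of the 42 members at TP1. It read 3.74, 14.98 and 12.1 CPM in TP1 controls and 735, 66.3 and 596 CPM in treated tumors, and 94.0, 34.4, 37.1 and 41.2 CPM in treated tumors at TP2. Its log2 fold change was 5.51 at TP1 (SE 0.88, edgeR adjusted p = 0.000301), held in 6 of 6 fits that left out 1 tumor, and 0.32 and -0.07 at TP2 and TP3. Mmp3, stromelysin-1, read 1.42, 1.18 and 2.41 CPM in TP1 controls and 26.8, 7.81 and 72.6 CPM in treated tumors. The groups of Mmp3 stood apart, with a log2 fold change of 4.42 (SE 0.83, edgeR adjusted p = 0.000975). Mmp10, stromelysin-2, did not follow them. It was not called at TP1, and at TP2 it fell from 3.20, 9.93 and 1.11 CPM in controls to 0.465, 0.801, 0.147 and 0.160 CPM, by 3.56 on the log2 scale (SE 0.75, edgeR adjusted p = 0.00103), and at TP3 it was lower by a log2 change of -3.88 (SE 0.75, adjusted p = 0.000562).

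Of the collagenases, which open the triple helix of fibrillar collagen, Mmp8 read 0.277, 1.18 and 0.586 CPM in TP1 controls and 7.56, 1.94 and 14.5 CPM in treated tumors. Mmp8 is known as the neutrophil collagenase. Its log2 fold change at TP1 was 3.57 (SE 0.83, edgeR adjusted p = 0.00423), and at TP3 it was lower by -2.10 (SE 0.80, adjusted p = 0.039), a call kept in 3 of 7 fits without 1 tumor. Mmp13 read 5.75, 7.90 and 9.18 CPM in TP1 controls and 18.1, 6.85 and 29.7 CPM in treated tumors, an overlap with a log2 difference of 1.27 (SE 0.60, adjusted p = 0.121) that did not pass. At TP2 its controls stood at 9.78, 32.3 and 6.78 CPM and treated tumors at 1.29, 3.49, 1.23 and 0.841, and at TP3 treated tumors stood at 0.647, 0.531, 0.484 and 1.02 CPM. All 8 treated tumors lay below every control. Mmp13 fell by 3.26 at TP2 (SE 0.60, edgeR adjusted p = 0.000384) and by 4.59 at TP3 (SE 0.64, adjusted p = 3.62e-05) on the log2 scale. Its TP2 call was lost in a joint fit of both models, in which all 33 tumors share 1 estimate of the spread. That fit called 11 members in place of 16 at TP1, 13 in place of 18 at TP2 and 15 in place of 20 at TP3. Calls of other members were thus lost there as well.

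Transcripts of several cell types also differed between treated and control tumors. Neutrophil markers summed over 10 genes ran from 9.35 to 23.7 CPM in TP1 controls, 33.2 to 143 in TP1 treated tumors, 22.0 to 46.7 in TP2 controls, 16.5 to 22.2 in TP2 treated tumors and 11.2 to 16.8 at TP3, and of the 4 tested, 4 were higher at TP1 and 3 were lower at TP2 and at TP3. Osteoclast-like markers, which include the phosphatase Acp5 and the fusion genes Dcstamp and Ocstamp, were higher at TP1 for 4 of 4 tested. Their sums there were 78.0 to 276 CPM against 31.0 to 46.6. In TP2 controls they summed to 43.8 to 56.0 CPM, at TP2 after treatment to 33.7 to 105.0 and at TP3 to 102.8 to 124.5. Of the 4, 1 was called higher at TP2 and 2 at TP3. Macrophage markers summed to 2829 to 3977 CPM in TP1 treated tumors against 789 to 1217 in controls, with 2 of 8 called (Lyz2, Cd68). In TP2 controls they summed to 831 to 1644 CPM, at TP2 after treatment to 1105 to 3643 and at TP3 to 2865 to 3899. Of the 8, 2 were called higher at TP2 and 3 at TP3. At TP3 the osteoclast-like and macrophage sums of treated tumors lay above those of the TP2 controls. Epithelial tumor cell markers were lower for 6 of 6 tested in all 3 comparisons. The part of these cells in the enzyme values was not tested.

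Among the membrane-type and remaining Mmp genes, Mmp25, a membrane-anchored enzyme known from leukocytes, read 1.07, 2.60 and 1.86 CPM in TP1 controls against 3.03, 6.96 and 5.26 CPM treated, and 3.30, 0.621 and 1.77 in TP2 controls against 15.1, 10.9, 9.42 and 10.3 treated. It rose by 1.47 at TP1 (SE 0.49), 2.59 at TP2 (SE 0.48, edgeR adjusted p = 0.000423) and 1.43 at TP3 (SE 0.46), and its TP1 call was kept in 2 of 6 fits without 1 tumor; the TP3 groups overlapped. Mmp19 read 18.04, 18.4 and 23.9 CPM in TP1 controls and 121, 65.4 and 106 CPM in treated tumors, higher by 2.29 (SE 0.36, edgeR adjusted p = 0.000285). Mmp23 was higher at TP1, 59.9 to 69.0 CPM against 25.9 to 35.5, by 1.05 (SE 0.16), and at TP3, 63.9 to 73.3 CPM against 21.8 to 37.7 in TP2 controls, by 1.16 (SE 0.15). Mmp27 stayed below 1.6 CPM in every 60577 tumor and read 0.0692 to 0.293 CPM in TP1 controls and 1.04 to 1.55 CPM in treated tumors. It passed the filter on low counts only with these treated tumors included, so its log2 difference of 2.80, one of the 15 calls higher, is a description.

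Mmp14, the main membrane-type collagenase and an activator of pro-Mmp2, read 218, 269 and 280 CPM in TP1 controls and 489, 371 and 382 CPM in treated tumors. The groups did not overlap, but the log2 difference of 0.70 (SE 0.21, edgeR adjusted p = 0.0202) stayed under the fold limit, and at TP2 and TP3 it was -0.11 and -0.06. Mmp16, another transmembrane enzyme, was higher at TP3, 7.63 to 12.4 CPM against 3.23 to 4.97, by 1.25 (SE 0.23, adjusted p = 0.000416). Mmp28, epilysin, was higher at TP3 by 1.00 (SE 0.28), a call kept in 3 of 7 fits without 1 tumor. Mmp11, Mmp15 and Mmp17 were called in none of the 3 comparisons.

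Levels of the same genes in the remaining 60577 groups are given as ranges. In TP2 controls and in treated tumors at TP2 and TP3, Mmp2 read 95.2 to 267, 272 to 454 and 331 to 406 CPM, Mmp14 172.6 to 281.5, 181.4 to 305.6 and 204.6 to 249.6, and Mmp19 18.3 to 44.4, 19.4 to 50.3 and 44.4 to 72.6. Mmp3 read 0.740 to 5.77, 0.736 to 3.51 and 2.23 to 4.39 CPM, Mmp8 0.657 to 1.77, 0.294 to 1.64 and 0.0332 to 0.484, and Mmp12 17.9 to 72.1, 34.4 to 94.0 and 21.9 to 61.9. Mmp3 and Mmp12 thus overlapped between control and treated tumors at both later times. Mmp27 read 0.0411 to 0.279, 0.0491 to 0.752 and 0.395 to 0.724 CPM, and its TP3 call (1.60, SE 0.62, edgeR adjusted p = 0.0427) was kept in 2 of 7 fits without 1 tumor. Mmp23 read 50.9 to 57.9 CPM at TP2 after treatment, Mmp25 3.10 to 6.72 CPM at TP3 and Mmp10 0.0719 to 0.730 CPM at TP3. Mmp10 at TP1 and Mmp16 at TP1 overlapped between groups, at 1.56 to 2.20 CPM in controls and 0.989 to 3.06 treated, and at 4.95 to 8.10 and 3.02 to 5.02. Mmp16 stood at 6.23 to 9.25 CPM at TP2 after treatment, Mmp17 at 6.82 to 15.4 CPM and Mmp24 at 0.603 to 2.05 CPM over all 17 tumors.

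Timp1, the inhibitor most often described as inducible, changed direction. At TP1 it read 39.8, 72.4 and 86.2 CPM in controls and 247, 86.2 and 290 CPM in treated tumors. At TP2 it read 88.8, 243 and 40.3 CPM in controls and 32.1, 37.8, 16.8 and 20.0 CPM in treated tumors, and at TP3 11.5, 15.1, 13.1 and 11.2 CPM. The TP1 groups met at 86.2 CPM, whereas every treated tumor at TP2 and TP3 lay below every control. Timp1 was higher at TP1 by 1.66 (SE 0.55, edgeR adjusted p = 0.0311), a call kept in 2 of 6 fits without 1 tumor and lost in the joint fit, lower at TP2 by a log2 change of -2.23 (SE 0.51, adjusted p = 0.00196) and lower at TP3 by -3.28 (SE 0.53, adjusted p = 0.000126), both kept in 7 of 7.

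Timp2 and Timp3 were not called at any of the 3 times. Timp2 read 1317, 1203 and 1323 CPM in TP1 controls and 1332, 1300 and 985 CPM in treated tumors, and 1258, 1217 and 1455 in TP2 controls against 913, 1080, 619 and 760 treated. The TP2 groups did not overlap, with a log2 difference of -0.65 (SE 0.17, edgeR adjusted p = 0.0043) under the fold limit, and at TP3 Timp2 read 1128, 1102, 1133 and 1337 CPM. Timp3, which binds to the matrix and also blocks ADAMTS enzymes, differed by 0.04 at TP1 (SE 0.26) and by -0.80 and -0.81 at TP2 and TP3 (SE 0.24 each, adjusted p = 0.0112 and 0.0114), with 244 to 458 CPM at TP2, 269 to 348 CPM at TP3 and 350 to 700 CPM in TP2 controls. Timp4 was too low for the test in tumors, at 0.0327, 0 and 0.123 CPM in TP2 controls and 0.394, 0.109, 0 and 0.0801 CPM in TP2 treated tumors. In TP3 treated tumors Timp4 read 4.10, 4.25, 3.84 and 0.965 CPM. Adipocyte markers, 6 genes, summed to 1173 to 1630 CPM in those TP3 tumors, 115 to 599 at TP2 after treatment and at most 47.2 in 60577 controls.

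**Figure D3:**
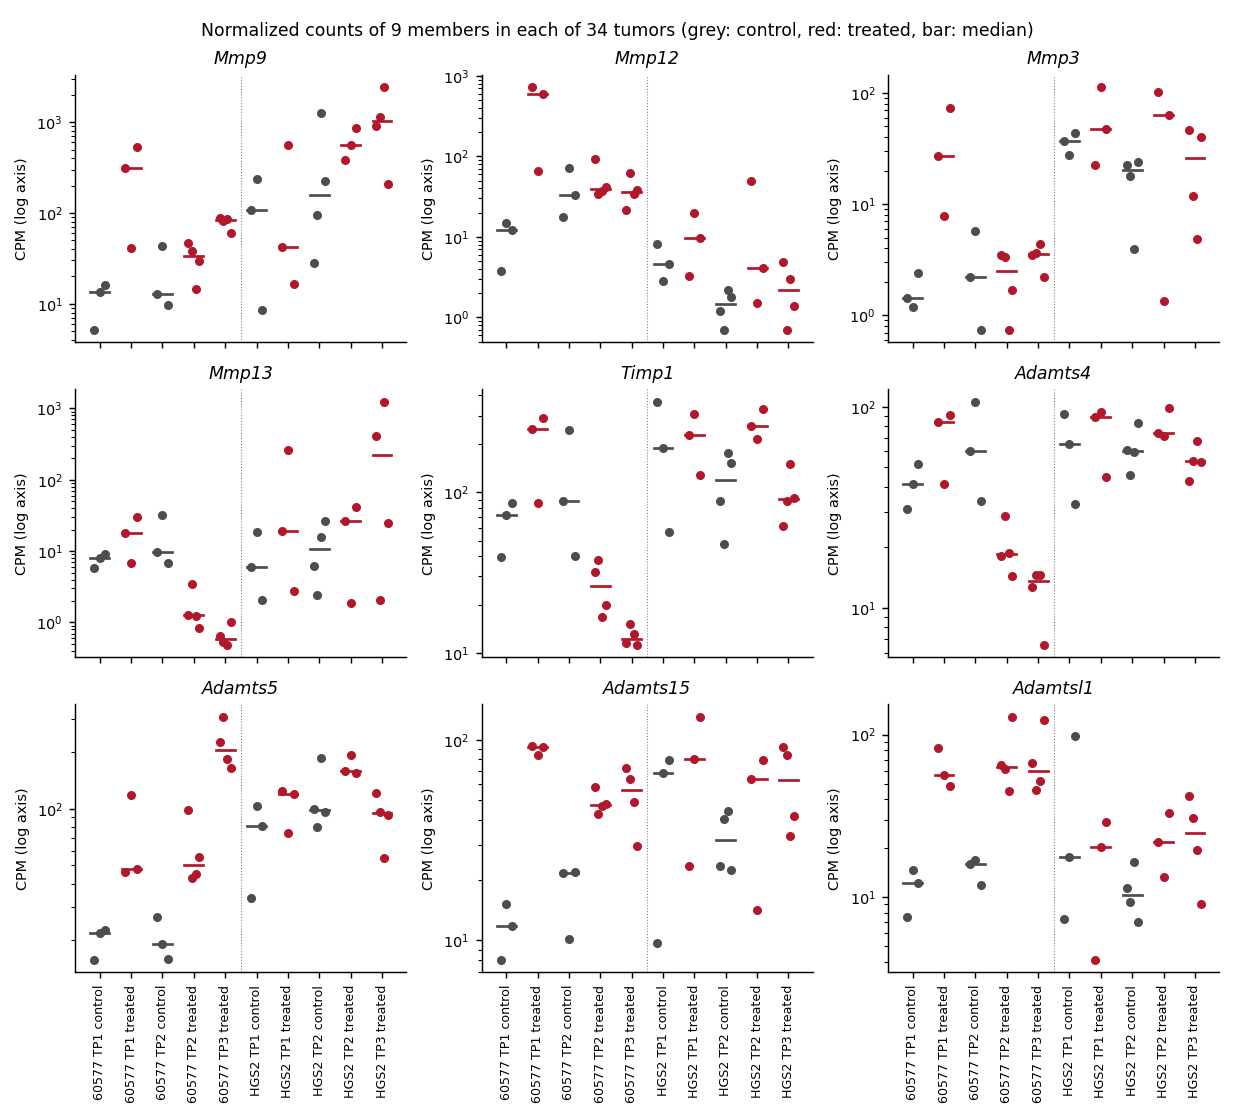
Normalized counts (CPM, log axis) of Mmp9, Mmp12, Mmp3, Mmp13, Timp1, Adamts4, Adamts5, Adamts15 and Adamtsl1 in each of the 34 tumors, by group on the horizontal axis, grey for control and red for treated, with a bar at the group median. In 60577, Mmp9, Mmp12 and Mmp3 have their highest group median at TP1 after treatment, Timp1, Mmp13 and Adamts4 drop below the controls at TP2 and TP3, and the treated and control groups of HGS2, right of the dotted line, overlap for all 9 genes except Timp1 at TP2.

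The aggrecanases and proteoglycanases split into genes that rose and genes that fell. Adamts5, a main aggrecanase, read 15.7, 21.9 and 22.8 CPM in TP1 controls against 46.4, 119 and 47.7 CPM treated, and 26.7, 19.1 and 15.9 CPM in TP2 controls against 98.8, 42.7, 44.8 and 55.2 at TP2 and 228, 310, 183 and 165 CPM at TP3. No treated tumor overlapped its controls. Adamts5 rose by 1.82 at TP1 (SE 0.40, edgeR adjusted p = 0.00296), 1.54 at TP2 (SE 0.38, adjusted p = 0.0031) and 3.44 at TP3 (SE 0.41, adjusted p = 9.72e-06). Adamts15, another proteoglycanase, read 7.997, 15.2 and 11.8 CPM in TP1 controls and 93.3, 84.0 and 92.2 CPM in treated tumors. Its treated values lay close together, and it rose by 2.95 (SE 0.34, adjusted p = 3.17e-05), then by 1.44 at TP2 (SE 0.31) and 1.59 at TP3 (SE 0.31). Adamts8 was low, 0.277 to 1.02 CPM in TP1 controls and 0.0931 to 2.29 in TP2 controls, and stood at 1.63 to 5.48, 5.10 to 9.05 and 8.91 to 12.1 CPM in treated tumors, higher by 2.31, 2.45 and 3.16 (SE 0.68, 0.64 and 0.65).

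Adamts4, the other main aggrecanase, went against Adamts5. It read 60.5, 106 and 33.9 CPM in TP2 controls, 18.2, 28.6, 18.7 and 14.5 CPM in TP2 treated tumors and 12.7, 14.5, 14.6 and 6.54 CPM at TP3, and 84.4, 41.5 and 90.9 CPM in TP1 treated tumors against 30.9, 41.4 and 52.0 in controls. Adamts4 was not called at TP1, and fell by 1.76 at TP2 (SE 0.38, edgeR adjusted p = 0.00133) and by 2.46 at TP3 (SE 0.39, adjusted p = 9.97e-05) on the log2 scale. Adamts9, a versican- and aggrecan-cutting enzyme, fell from 257 to 380 CPM in TP2 controls to 87.0 to 162 CPM at TP2, by 1.38 (SE 0.22, adjusted p = 0.000137), and to 55.3 to 79.7 CPM at TP3, by 2.15 (SE 0.23, adjusted p = 2.7e-06). Adamts20 was lower at TP1 by -1.05 (SE 0.37), kept in 2 of 6 fits without 1 tumor, and higher at TP2 by 1.21 (SE 0.35), with 3.51 to 7.85 CPM against 1.49 to 3.17. Adamts1 was called in none of the 3.

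The procollagen N-proteinases showed no call at any of the 3 times. Adamts2 was at 278, 231 and 243 CPM in TP1 treated tumors and 108, 131 and 146 CPM in controls without overlap, a log2 difference of 0.97 (SE 0.15, edgeR adjusted p = 0.000261) just under the fold limit. Adamts3 differed by 0.88 at TP1 (SE 0.34, adjusted p = 0.0554), and Adamts14 by 0.59 at TP2 (SE 0.17, adjusted p = 0.00762) and -0.50 at TP3 (SE 0.17, adjusted p = 0.02).

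Adamts6 and Adamts10, relatives that are tied to fibrillin microfibrils, were higher at TP2. Adamts6 read 11.0, 4.62 and 8.10 CPM in TP2 controls and 28.6, 25.04, 39.2 and 32.3 CPM in treated tumors, higher by 1.97 (SE 0.27, edgeR adjusted p = 4.34e-05), and by 1.16 at TP3 (SE 0.27). Adamts10 read 73.7, 41.1 and 83.3 CPM in controls and 132, 183, 328 and 274 CPM in treated tumors, higher by 1.79 (SE 0.27, adjusted p = 9.63e-05), and its TP3 difference of 0.79 was under the fold limit. Both groups stood apart without overlap at TP2. Adamts17 and Adamts19 were called higher at TP2 by 1.77 and 1.94 (SE 0.48 and 0.77), the latter kept in 3 of 7 fits without 1 tumor and lost with the replicate number as a block (edgeR adjusted p = 0.106), and Adamts7 was lower at TP3, 31.8 to 40.7 CPM against 84.9 to 85.3, by -1.30 (SE 0.20). Adamts12 and Adamts16 were not called, and Adamts13, which cuts von Willebrand factor, was below the test's filter at 1.42 to 1.86 CPM in TP2 treated tumors and 0.217 to 0.411 CPM in their controls.

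Among the ADAMTS-like genes, Adamtsl1 read 7.48, 14.7 and 12.2 CPM in TP1 controls and 82.4, 56.1 and 48.1 CPM in treated tumors, and 16.1, 16.97 and 11.9 CPM in TP2 controls against 64.6, 61.5, 44.7 and 129 at TP2 and 66.9, 45.6, 52.0 and 122 at TP3. No treated tumor reached down to a control. It was higher by 2.45 (SE 0.43, edgeR adjusted p = 0.000568), 2.31 (SE 0.41, adjusted p = 0.000287) and 2.26 (SE 0.41, adjusted p = 0.000295). Adamtsl5 was higher in the same 3 comparisons, with 6.25 to 13.4 CPM over all 6 controls and 26.1 to 65.8 CPM over all 11 treated tumors, by 1.86, 2.10 and 1.48 (SE 0.31, 0.30 and 0.29). Adamtsl3 rose at TP2 by 1.44 (SE 0.37), 30.6 to 57.9 CPM against 5.21 to 18.8, and at TP3 by 1.23 (SE 0.37), and Adamtsl2 at TP2 by 1.63 (SE 0.66), a call kept in 3 of 7 fits without 1 tumor and lost with the replicate block (edgeR adjusted p = 0.0609). Adamtsl4, at 17.9 to 39.3 CPM in all 17 tumors, was not called. Fibroblast markers, of which 6, 5 and 6 of 8 were called higher at TP1, TP2 and TP3, summed to 2113 to 3403 CPM in TP1 controls, 5224 to 6724 in TP1 treated tumors, 2282 to 3229 in TP2 controls, 2645 to 4145 at TP2 after treatment and 4529 to 5124 at TP3. Smooth muscle markers had 2 of 5 called higher each time. T cell markers had 2, 4 and 5 of 5 called higher at TP1, TP2 and TP3, with sums of 5.51 to 21.3 CPM in controls, 17.2 to 50.2 at TP1, 55.4 to 107.6 at TP2 and 90.4 to 108.4 at TP3 after treatment. B and plasma cell markers had 0, 3 and 5 of 5 called higher, with sums of 2.05 to 66.4 CPM in controls, 13.5 to 117.4 at TP1, 58.02 to 239.7 at TP2 and 460.5 to 741.3 at TP3. Of 4 mast cell markers tested, 2, 3 and 3 were called higher and Kit lower at TP2, while their sum ran from 18.1 to 37.98 CPM in controls and from 10.6 to 29.4 after treatment. Mesothelial markers had 4, 1 and 4 of 5 called lower, with sums of 1891 to 2537.9 CPM in controls and 585.5 to 1332.2 after treatment, and of 3407.8 to 3729.2 CPM in the 60577 line. Endothelial markers had 0, 0 and 2 of 5 called higher. The part of these cells was not tested.

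Of the ADAMTS genes at the other times, Adamts15 read 10.1 to 22.1 CPM in TP2 controls and 42.6 to 58.2 and 29.5 to 72.6 at TP2 and TP3 after treatment, all above the controls. At TP1 in controls and treated tumors, Adamts6 read 7.27 to 13.3 and 16.4 to 24.0 CPM, Adamts9 235 to 366 and 148 to 238, Adamts10 92.9 to 108.5 and 105.5 to 130, Adamts20 3.93 to 7.75 and 1.70 to 2.94, and Adamtsl3 14.5 to 24.6 and 27.4 to 45.1. The groups of Adamts9 and Adamts10 overlapped there. At TP3, Adamts6 read 16.04 to 20.2, Adamts10 100.8 to 122.0, Adamts20 2.13 to 3.56 and Adamtsl3 26.1 to 40.9 CPM. Adamts2 and Adamts3 read 139.5 to 148.2 and 6.204 to 18.1 CPM in TP2 controls, 130.9 to 182.5 and 7.41 to 12.3 at TP2 after treatment, and 179.3 to 240.5 and 6.90 to 8.06 at TP3.

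Several calls in 60577 rested on single tumors. Without TP2 control replicate 2, the calls of Adamts20 at TP2 and of Adamts6, Adamtsl3, Mmp23 and Mmp25 at TP3 were lost, and so were those of Adamts19 at TP2 and of Mmp8 and Mmp28 at TP3. Without TP1 treated replicate 2, those of Adamts8, Adamts20 and Mmp25 at TP1 were lost; without TP1 control replicate 1, those of Adamts8, Mmp23, Mmp25 and Timp1; without TP1 treated replicate 3, those of Adamts20, Mmp23, Mmp25 and Timp1; and without TP1 treated replicate 1, those of Adamts20 and Timp1. Without TP1 control replicate 2 the call of Timp1 was lost, and without replicate 3 those of Adamts20 and Mmp25. The calls of Adamtsl2 at TP2 and of Mmp27 and Mmp9 at TP3 were lost with 4, 5 and 5 of the 7 tumors left out in turn, and Adamts19 with 4. The remaining calls of the 3 comparisons held in every such fit.

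How treated 60577 tumors changed with time after the last dose was asked next. Between TP1 and TP2, 12 members fell and 3 rose, where 2.44% and 3.58% of all genes were called lower and higher. The 12 were Mmp2, Mmp3, Mmp8, Mmp9, Mmp10, Mmp12, Mmp13, Mmp19, Timp1, Timp3, Adamts3 and Adamts4, so 8 of 17 Mmp genes tested fell; Mmp3 changed by -3.94 (SE 0.72, edgeR adjusted p = 0.0045), Mmp13 by -3.41 (SE 0.60), Mmp12 by -3.18 (SE 0.70) and Timp1 by -2.97 (SE 0.52). Adamts17, Adamts19 and Adamts20 rose, by 2.75, 2.5 and 1.20 (SE 0.52, 0.79 and 0.35). The 15 calls became 7 without TP1 treated replicate 1, 9 without replicate 3 and 6 in the joint fit. All 4 neutrophil markers tested fell over the same interval.

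Between TP2 and TP3, 2 members rose and 5 fell, against 3.47% and 4.4% of all genes, and 1 rose and 5 fell with the length and GC content offset. Adamts5 rose again, by 1.89 (SE 0.34, edgeR adjusted p = 0.00288), and Adamts1, a versican-cutting enzyme, by 1.03 (SE 0.21). Lower were Mmp25, Adamts7, Adamts14, Adamts16 and Adamts20, of which Adamts7 changed most, by -1.39 (SE 0.19). Without TP2 treated replicate 3 the 7 calls became 2, without replicate 4 they became 4, and the joint fit gave 4. Adipocyte markers rose for 6 of 6 tested over this interval. Between the TP1 and TP2 controls, 0 members were called, where 0% of all genes were called higher and 0% lower; 5 had an unadjusted p below 0.05 by edgeR, 7 by limma-voom and 8 by DESeq2, with 0 called by either. The largest difference there was that of Mmp12, 2.02 (SE 0.76, edgeR adjusted p = 0.464).

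A list of 26 partner genes (activators, substrates, and binding and clearance proteins) was read beside the members, and 23 were tested in tumors. Of all genes, 9.66%, 14.8% and 14.2% were called higher at TP1, TP2 and TP3, and 5.97%, 9.62% and 10.2% lower. In treated tumors 3.58% were higher and 2.44% lower from TP1 to TP2, and 3.47% and 4.4% from TP2 to TP3. At TP1, 11 were higher and 1 lower, led by Ctsk, the collagen-cutting cathepsin, at 3.58 (SE 0.60, edgeR adjusted p = 0.000428), Col3a1, type III collagen, at 1.89 (SE 0.26) and Tll1, a procollagen C-proteinase, at 1.81 (SE 0.55), with Pcsk6, a proprotein convertase, lower by -1.07 (SE 0.39). At TP2, 3 were higher, Tll1 at 2.81 (SE 0.55), Vwf at 1.84 (SE 0.71) and Reck, a membrane-bound inhibitor of metalloproteinases, at 1.57 (SE 0.23). Lower at TP2 were Lcn2, the lipocalin that binds Mmp9, at -3.00 (SE 0.47), Bsg, which induces metalloproteinases, at -2.05 (SE 0.29), and Tfpi2 at -1.37 (SE 0.32). At TP3, 6 were higher and 3 lower, with Tll1 at 2.87 (SE 0.55), Reck at 2.57 (SE 0.24), Vwf at 2.28 (SE 0.72), Lcn2 at -4.21 (SE 0.50), Bsg at -1.66 (SE 0.29) and Tfpi2 at -1.53 (SE 0.32). The 12 calls at TP1 became 6 without TP1 control replicate 1 and 7 without TP1 treated replicate 1. In treated tumors 1 partner rose and 6 fell from TP1 to TP2, and 2 rose and 1 fell from TP2 to TP3, and the latter 3 calls became 1 without TP2 treated replicate 3 and 5 without replicate 1.

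In HGS2 tumors no member was called with chemotherapy at any time. At TP1, TP2 and TP3 there were 0 calls higher and 0 lower of 42, where 0% of all 16239 genes were called in either direction at each time. By edgeR 1, 4 and 2 members had an unadjusted p below 0.05; limma-voom called 0 at each time with 1, 4 and 1 below 0.05 unadjusted, and DESeq2 called 0 with 3, 7 and 2. The lowest adjusted p of any member was 0.999, 0.588 and 1.0. The median log2 fold change of the members was 0.22, 0.09 and -0.06, beside 0.00, -0.02 and 0.00 over all genes. None of the 23 partners tested was called by edgeR, limma-voom or DESeq2, with 0, 0 and 1 below an unadjusted p of 0.05 by edgeR.

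Spread within the HGS2 groups was wide for the gelatinase and collagenase genes. Mmp9 read 107, 240 and 8.44 CPM in TP1 controls and 41.96, 560 and 16.3 CPM in treated tumors, and 28.3, 95.8, 1264 and 223 CPM in TP2 controls, 380, 561 and 858 at TP2 after treatment and 912, 1135, 2460 and 208 CPM at TP3. The groups overlapped at every time, with SEs of 1.34 to 1.45 on the log2 scale. Mmp13 ran from 1.87 to 41.3 CPM in TP2 treated tumors and read 414, 2.06, 1240 and 24.4 CPM at TP3, against 6.13, 2.40, 15.6 and 26.6 in TP2 controls. Its TP3 log2 difference of 5.09 had an SE of 1.86 (edgeR adjusted p = 1.0; TP3 replicate 1 is not in that fit). Osteoclast-like markers summed to 134 to 2113 CPM over the same 4 TP3 tumors and to 42.7 to 727 in TP2 controls; their part was not tested.

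Mmp12 in HGS2 read 1.19, 0.695, 2.21 and 1.78 CPM in TP2 controls and 49.4, 1.51 and 4.05 CPM in treated tumors, a log2 difference of 3.64 (SE 1.00, edgeR adjusted p = 0.588) carried by 1 tumor. Mmp3 read 22.5, 18.04, 3.94 and 24.1 CPM in TP2 controls and 101, 1.35 and 63.4 CPM in treated tumors, with overlap. Timp1 read 87.8, 47.7, 176 and 152 CPM in TP2 controls and 258, 213 and 328 CPM in treated tumors. These Timp1 groups did not overlap, yet the difference of 1.21 (SE 0.52, adjusted p = 0.636) did not pass. Timp2 and Timp3 differed by -0.40 to -0.08 and by -0.51 to 0.26 over the 3 times. Timp4 read at most 0.629 CPM in any HGS2 tumor. Among the aggrecanases, Adamts5 stood at 79.8 to 186 CPM in TP2 controls, 156 to 194 in treated tumors and 55.1 to 121 at TP3, and Adamts4 at 45.6 to 82.96, 71.3 to 99.1 and 42.6 to 67.8 CPM.

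The other HGS2 members are given as ranges in TP1 controls, TP1 treated, TP2 controls, TP2 treated and TP3 treated tumors. Adamts9 read 74.9 to 163, 58.5 to 73.5, 76.9 to 134.5, 52.2 to 65.4 and 67.5 to 132.8 CPM, and Adamts6 21.3 to 28.4, 33.2 to 56.0, 19.04 to 28.5, 23.6 to 31.7 and 12.4 to 21.3. Adamts9 at TP1 and TP2 and Adamts6 at TP1 did not overlap between treated and control tumors, with log2 differences of -0.68, -0.89 and 0.75 (SE 0.32, 0.31 and 0.24, edgeR adjusted p = 0.999, 0.601 and 0.999). Mmp25 read 3.70 to 19.4, 6.83 to 15.7, 0.541 to 5.78, 9.22 to 21.6 and 1.91 to 6.70 CPM, apart at TP2 by 2.06 (SE 0.70, adjusted p = 0.588).

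Treated and control tumors of the members that follow overlapped at each time. Over the same 5 groups of HGS2, Mmp2 lay between 163 and 944 CPM, Mmp14 between 543 and 1414, Mmp23 between 16.2 and 90.9 and Mmp17 between 3.31 and 15.1. Mmp19 lay between 29.9 and 88.2 CPM, Mmp16 between 4.37 and 53.4, Mmp10 between 0.0413 and 41.1, Mmp8 between 0 and 10.3, Mmp27 between 0 and 2.10 and Mmp24 between 0 and 0.425. Mmp8, Mmp27 and Mmp24 were at 0 in at least 1 tumor. Adamts2 lay between 193 and 524 CPM, Adamts3 between 18.5 and 255, Adamts10 between 64.6 and 158, Adamts15 between 9.71 and 131, Adamts8 between 0.350 and 6.70 and Adamts20 between 0.915 and 13.6. Of the ADAMTS-like genes, Adamtsl1 lay between 4.09 and 98.3 CPM, Adamtsl3 between 4.76 and 26.1 and Adamtsl5 between 5.37 and 24.3.

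Whether the response differed between the models was tested directly, as the HGS2 minus the 60577 response in 1 fit of 33 tumors. At TP1, 0 members were higher and 1 was lower, against 0.449% and 0.997% of all 16241 genes. This was Mmp19, with a difference of -2.36 (SE 0.50, edgeR adjusted p = 0.0148): HGS2 read 57.7, 65.1 and 66.4 CPM in controls and 35.8, 88.2 and 54.6 CPM in treated tumors. The call was lost without HGS2 TP1 treated replicate 1, 60577 TP1 control replicate 1 or 60577 TP1 treated replicate 1, and kept in 9 of 12 such fits. The count became 4 without HGS2 TP1 control replicate 1, 3 without its replicate 2, and 2 without HGS2 TP1 treated replicate 2 or 3 or 60577 TP1 treated replicate 2. The differences of Mmp12, -4.44 (SE 1.33, adjusted p = 0.0749), of Adamtsl1, -3.65 (SE 0.98, adjusted p = 0.0501), and of Mmp9, -3.89 (SE 1.73, adjusted p = 0.221), did not pass.

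At TP2, 2 members differed upward and 4 downward, against 3.68% and 3.21% of all genes. Timp1 differed by 3.42 (SE 0.77, edgeR adjusted p = 0.00964) and Adamts4 by 2.13 (SE 0.52, adjusted p = 0.0143), both having fallen in 60577, and both calls were lost without 60577 TP2 control replicate 2 (adjusted p = 0.0625 and 0.0782). Adamts6 differed by -1.75 (SE 0.37, adjusted p = 0.00675), Adamts10 by -1.67 (SE 0.37, adjusted p = 0.00884) and Adamtsl5 by -2.27 (SE 0.58, adjusted p = 0.0185), each kept in 14 of 14 fits without 1 tumor. With the replicate number as a block, the call of Adamtsl5 was lost (edgeR adjusted p = 0.0515). In HGS2, Adamts6 read 28.5, 19.0, 20.1 and 24.4 CPM in TP2 controls and 23.6, 31.7 and 26.1 CPM treated, Adamts10 read 64.6 to 120 and 85.1 to 130 CPM, and Adamtsl5 read 8.602 to 22.7 and 7.11 to 20.7 CPM. These groups overlapped. Mmp16 differed by -1.95 (SE 0.61, adjusted p = 0.0418), kept in 4 of 14 and lost with the block (adjusted p = 0.0576). Of the partners, Col3a1 differed at TP1 (-2.06, SE 0.54), and at TP2 Lcn2 by 4.42 (SE 0.96), Bsg by 1.40 (SE 0.42) and Tll1 by -2.49 (SE 0.81). Leaving out 1 tumor gave 0 to 2 partners at TP1 and 1 to 4 at TP2. The 1 call at TP1 became 0 with limma-voom, with all 17 HGS2 tumors, without the filter and with the replicate block, and 3 with DESeq2 and with the length and GC content offset. The 3 at TP2 became 1 with all 17 HGS2 tumors, without the filter and with the block.

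Control tumors of the models were then compared, taking TP1 and TP2 together. In HGS2 controls 16 members were higher and 2 lower than in 60577 controls, where 13.2% and 8.81% of all genes were, and the median log2 difference of the members was 0.93 against 0.05 over all genes. Mmp9 ran from 8.44 to 1264 CPM in HGS2 controls and 5.12 to 43.4 in 60577, a difference of 3.78 (SE 0.92, edgeR adjusted p = 0.00136) with overlap. Mmp3 ran from 3.94 to 43.9 CPM against 0.740 to 5.77, higher by 3.49 (SE 0.73, adjusted p = 0.000323), also with overlap. Mmp14 stood at 543 to 1352 CPM against 173 to 282, apart without overlap, higher by 2.00 (SE 0.21, adjusted p = 2.24e-08).

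Of the inhibitors, Timp3 was higher by 1.62 (SE 0.28, edgeR adjusted p = 4.05e-05), with 632 to 3440 CPM against 350 to 700, while Timp1 and Timp2 were not called. Adamts5 stood at 33.7 to 186 CPM against 15.7 to 26.7, higher by 2.17 (SE 0.29, adjusted p = 1.27e-06), and Adamts3, a procollagen N-proteinase, at 25.5 to 255 against 6.204 to 18.1, higher by 2.78 (SE 0.42, adjusted p = 6.23e-06). Adamts2 was higher by 1.48 (SE 0.20) at 193 to 524 CPM against 108 to 148, and Mmp27, near the filter on low counts, differed by 2.15 (SE 0.63). Lower in HGS2 were Mmp12, 0.695 to 8.09 CPM against 3.74 to 72.1, by -2.90 (SE 0.67, adjusted p = 0.000791), and Adamts9, by -1.57 (SE 0.20). The calls of Mmp19 and Adamts1, at 1.01 and 1.00 near the fold limit, were kept in 6 and 8 of 13 fits without 1 tumor. Of 23 partners tested, 14 were higher, led by Acan, aggrecan itself, at 6.49 (SE 1.14), A2m at 3.91 (SE 1.01) and Ctsk at 3.65 (SE 0.74). Lower were 2, Tfpi2 and Lcn2, at -1.83 (SE 0.50) and -1.42 (SE 0.49). Of all genes, 13.2% were called higher and 8.81% lower.

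Cell type markers differed between the control tumors as well. Macrophage markers were higher in HGS2 for 8 of 8, fibroblast markers for 6 of 8, osteoclast-like markers for 3 of 4 and pancreatic acinar markers for 7 of 7 tested, and epithelial markers were lower for 5 of 6. Of the acinar calls, 0 were made by limma-voom and 0 by DESeq2, and the sums of the HGS2 controls other than the 2 named above lay within the range of the 60577 controls, which reached 1711 CPM. Of the osteoclast-like calls, limma-voom made 0 and DESeq2 3. Fibroblast markers summed to 7850 to 32599 CPM in HGS2 controls and to 2113 to 3403 in 60577 controls. In the cell lines, scaled apart from the tumors, the same 8 genes summed to 3975 to 12321 CPM for HGS2 and to 705.7 to 727.5 for 60577. These transcripts are thus not particular to host fibroblasts here. Without the 3 HGS2 tumors that carried over 10000 CPM of acinar markers, a limit chosen after seeing the data, 21 members were called in place of 18. The part of these cell types, and of the malignant cells, was not tested.

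In the cell lines, where no other cell type is present by design, the HGS2 line also stood higher for matrix proteases. Of 36 members tested, 11 were higher and 1 lower in HGS2, against 7.55% and 8.38% of all 13742 genes, with a median log2 difference of 0.95 beside -0.03. Adamts5 read 276 and 301 CPM in HGS2 and 27.7 and 17.9 in 60577, higher by 3.66 (SE 0.29, edgeR adjusted p = 0.0034). Mmp17 read 136 and 49.8 CPM against 13.7 and 6.66, higher by 3.19 (SE 0.60, adjusted p = 0.0244), and Mmp19 28.0 and 10.1 against 2.27 and 2.04, higher by 3.14 (SE 0.54, adjusted p = 0.0192). The 4 libraries of each of these genes did not overlap between the lines.

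Adamts15 in the lines was higher by 2.59 (SE 0.43), Adamts2 by 2.44 (SE 0.45), Mmp3 by 2.20 (SE 0.35), Mmp15 by 1.94, Adamts1 by 1.85, Adamts6 by 1.70 and Adamtsl4 by 1.40. The other call higher, Adamtsl1, and the 1 lower, Mmp24, a membrane-type enzyme, reached 1 CPM only in the line where each is higher. They passed the filter through that line alone, and their values are a description: Mmp24 read 0.303 and 0.0539 CPM in HGS2 against 2.17 and 3.25 in 60577, and Adamtsl1 read 4.07 and 2.45 CPM in HGS2. Mmp14, at 530 and 284 CPM against 90.9 and 20.2, differed by 2.87 (SE 0.76, adjusted p = 0.0551) and did not pass. The inhibitors were not called: Timp1 read 72.8 and 43.9 CPM against 30.8 and 20.3, Timp2 1268 and 818 against 1672 and 2144, Timp3 1812 and 760 against 511 and 335, and Timp4 3.03 and 0.0539 against 0.137 and 0.337. With 2 libraries a line the calls depended on each: 1 call was made without 60577 line replicate 2, 3 without replicate 1, and 19 and 20 without HGS2 replicate 1 and 2. The call of Adamts5 was kept in 4 of 4 of these fits. Fibroblast markers were higher in the HGS2 line for 7 of 8 and epithelial markers lower for 5 of 6 tested, where 7.55% and 8.38% of all genes were called higher and lower. Of 19 partners tested, 7 were higher, led by Col1a1 at 4.34 (SE 0.76), Reck at 3.91 (SE 0.44) and Mrc2, the collagen uptake receptor, at 3.58 (SE 0.47), and Ctsk and Pcsk6 were lower, at -3.26 (SE 0.52) and -1.97 (SE 0.37); 2 partners were called without 60577 line replicate 2.

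**Figure D4:**
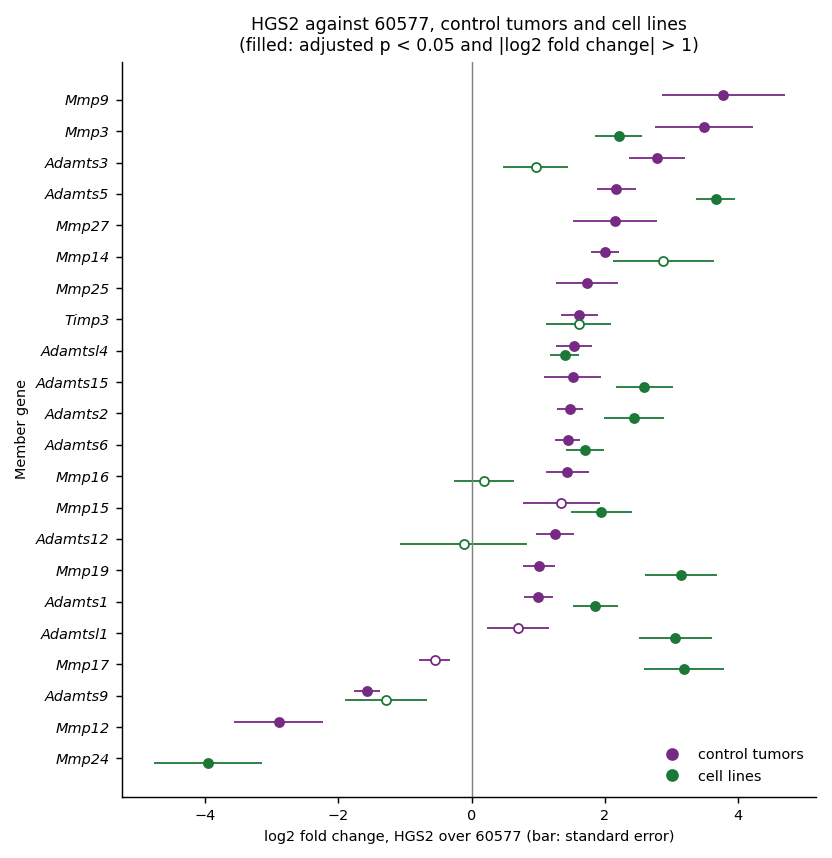
Log2 fold change of HGS2 over 60577 with its standard error, for each member called in control tumors (purple) or in the cell lines (green); filled points are calls, and a gene without a point was not tested in that table. Adamts5 is called in both, at 2.17 and 3.66, Mmp9 lies at 3.78 in tumors and was not tested in the lines, and Mmp17 is called in the lines only.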

How the data were processed

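RNA of 34 mouse omental tumors and 4 cell line libraries was ribosomal RNA-depleted and sequenced as stranded paired-end reads. Per the labels and the study's methods, the authors trimmed reads with Trim Galore 0.6.5, aligned them with STAR 2.7.0f to GRCm38, and deposited RSEM expected counts for 55487 genes, 1 table for tumors and 1 for lines. Here these expected counts were rounded and tested with edgeR 4.0.16 (R 4.3.3; TMM scaling, quasi-likelihood test, genes at 1 CPM in 25% of libraries, Benjamini-Hochberg over all genes tested). SE is the absolute log2 fold change over the root of F. The study itself used cqn with limma for tumors and DESeq2 for lines. The members and lists were chosen with earlier results of these data known. Values in full are given for all Timp genes, members called in at least 2 of the 6 treated against control comparisons or in a difference of models, and up to 8 with the largest change between the models in tumors and in lines. Alternatives were limma-voom 3.58.1, DESeq2 1.42.0, its size factors, no filter, a length and GC content offset, a joint fit, a replicate block, all 17 HGS2 tumors, and leaving out each library. Same-numbered control and treated tumors deviated together at TP2 (correlations of 0.114 to 0.144 in 60577 and 0.138 to 0.296 in HGS2, 3 pairs each). Over all 31 and 27 same-numbered pairs the correlations ran from -0.419 to 0.318 and from -0.486 to 0.366, with medians of -0.04 and -0.08. The labels state no pairing. Correlations between tumors of different numbers were not computed, so whether same-numbered tumors are paired cannot be told. The fits were tested on simulated data. Symbols and exon lengths come from GENCODE for GRCm38, which lacked 260 of the genes.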

Additional observations from a re-analysis of the deposited data

Results flagged for a closer look

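In 8 of 124 combinations of gene and group, 1 tumor lay far from the others of its group by Dixon's criterion, and chance alone gives about 1 in 20. Only groups of 4 tumors were tested, so no tumor in a group of 3 could be flagged. Mmp9 read 1264 CPM in HGS2 TP2 control replicate 3 against 28.3 to 223 in the other 3. Adamts3 read 114.0 CPM in HGS2 TP2 control replicate 1 against 36.2 to 40.1, and Adamts6 read 12.4 CPM in HGS2 TP3 treated replicate 3 against 20.1 to 21.3. In 60577 TP2 treated tumors, Mmp12 read 94.0 CPM in replicate 1 against 34.4 to 41.2, Mmp13 read 3.49 CPM in replicate 2 against 0.841 to 1.29, and Adamtsl3 read 57.9 CPM in replicate 3 against 30.6 to 32.1. In 60577 TP3 treated replicate 4, Timp2 read 1337 CPM against 1102 to 1133 and Timp4 0.965 CPM against 3.84 to 4.25.

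The responses of the models differed for 7 members by the test of the difference itself (edgeR, HGS2 minus 60577). Of all genes, 0.449% were called higher and 0.997% lower at TP1, and 3.68% and 3.21% at TP2. At TP1 the member was Mmp19, at -2.36 (adjusted p = 0.0148). At TP2 these were Timp1 at 3.42 (adjusted p = 0.00964), Adamts4 at 2.13 (adjusted p = 0.0143), Adamts10 at -1.67 (adjusted p = 0.00884), Adamts6 at -1.75 (adjusted p = 0.00675), Adamtsl5 at -2.27 (adjusted p = 0.0185) and Mmp16 at -1.95 (adjusted p = 0.0418). The calls of Timp1 and Adamts4 were lost without 60577 TP2 control replicate 2. Those of Mmp16 and Mmp19 were lost in some of the fits that left out a tumor, and those of Adamtsl5 and Mmp16 with the replicate block. What sets the models apart in these genes was not tested.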

How the results depend on the processing

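No called value of a member changed its direction under any alternative run: of 1717 repeats over 113 calls, 1506 stayed past the threshold, 211 did not and 0 reversed. Most losses came from leaving out 1 library (137 of 901) and from the joint fit (28 of 76). The joint fit gave 6 calls in place of 15 between TP1 and TP2 of treated 60577 tumors and 4 in place of 7 between TP2 and TP3. Against controls it gave 11 calls in place of 16 for 60577 at TP1, 13 in place of 18 at TP2 and 15 in place of 20 at TP3. For the difference of models at TP1, 1 call became 3 with DESeq2, 2 with its size factors and 3 with the length and GC content offset, and at TP2 6 calls became 10 with DESeq2. In the cell lines 12 calls became 23 without a filter on low counts. The cause was not tested.

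Leaving out 1 library gave 12 to 16 calls for 60577 at TP1, 16 to 20 at TP2, 16 to 19 at TP3, 7 to 18 from TP1 to TP2 and 2 to 9 from TP2 to TP3 in treated tumors, 0 to 0 between controls and in each HGS2 comparison, 0 to 4 and 3 to 9 for the difference of models at TP1 and TP2 (3 without 60577 TP2 control replicate 2), 17 to 21 between control tumors and 1 to 20 between lines. With the replicate number as a block, the counts were 14, 16 and 17 for 60577 at TP1, TP2 and TP3, 10 and 6 between treated time points, 1 and 4 for the difference of models, 17 between control tumors and 16 between lines (14 with the numbers of 1 line exchanged, an alternative chosen after seeing the data). Within TP2, the block changed no other call of a member than the 4 given in the report (Adamts19 and Adamtsl2 in 60577, Adamtsl5 and Mmp16 in the difference of models). Groups of 3 or 4 tumors limit the precision.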
